A study of Rattus norvegicus with 21 samples.

Results

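Abcg5 and Abcg8 encode the ABC transporters that together export sterols from hepatocytes, and their messenger RNA was followed in the livers of male rats from 2 dosing studies. The members were chosen by name, as every probe set whose platform gene symbol is exactly Abcg5 or Abcg8, which gave 2 probe sets, 1 for each gene, of 31042 on the array and 2 of 14217 named genes. The pair was selected on its measured signals in all 7 dose groups and on the difference between the control groups of both studies. All values of the pair below are therefore a description, given with no test.

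The dammar resin study (DAM, a plant resin mixed into the diet) held 9 male Fischer 344 rats, 3 on basal diet (0 mg/kg) and 3 at each of 800 and 2000 mg/kg, which corresponded to 2% and 5% of the diet, fed for 28 days. The piperonyl butoxide study (PBO, an insecticide synergist) held 12 male Sprague-Dawley rats, 3 on the vehicle, 0.5% methyl cellulose (0 mg/kg), and 3 more at 500, 1000 or 1500 mg/kg, given by mouth over 7 days. Livers of the DAM animals were frozen in liquid nitrogen and those of the PBO animals were kept in RNAlater. Strain, length, route, control treatment and storage therefore differ together between the studies and cannot be told apart. Each animal was measured on 1 Affymetrix array of 1 colour, and values are MAS5 signals, a linear brightness scale on which each array has a trimmed mean of about 500.

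ABCG5 and ABCG8 are each an incomplete transporter. They pair in the endoplasmic reticulum, travel to the bile canaliculus of the hepatocyte and move cholesterol and plant sterols into bile, and in the enterocyte they return sterols to the gut lumen. In humans, loss of either gene causes sitosterolaemia, in which plant sterols accumulate. The genes lie head to head and share a short stretch between their starts. In mice, both are activated by the oxysterol receptors LXRα and LXRβ (Nr1h3 and Nr1h2), which also switch on Abca1, Abcg1 and Srebf1. HNF4α, LRH-1 (Nr5a2), GATA factors and FOXO1 have been named as further regulators in human or mouse cells.

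The shared stretch is shown because both genes start from it, in opposite directions, and their signals varied together. In the rat build GRCr8 the annotated starts of Abcg8 and Abcg5 have 205 bases between them. The RefSeq promoter window of Abcg5, chr6:15717686-15717985 on the plus strand, spans 250 bases before its start and 50 after it, and 295 of its 300 bases are also in the window of Abcg8 on the other strand. Abcg5 starts at base 251 of the printed window and Abcg8 starts at base 45 and runs the other way. Capitals mark the TATA box letters TATAAA, then the GATA-factor letters GATAAG, then the letters ATTGG, which are the NF-Y motif CCAAT read on the minus strand.
Abcg5 promoter: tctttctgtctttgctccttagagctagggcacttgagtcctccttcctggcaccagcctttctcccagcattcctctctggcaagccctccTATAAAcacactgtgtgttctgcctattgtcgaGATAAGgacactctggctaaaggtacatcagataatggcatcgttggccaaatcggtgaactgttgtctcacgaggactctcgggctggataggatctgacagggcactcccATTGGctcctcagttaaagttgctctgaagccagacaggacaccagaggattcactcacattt

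Of 33469 RefSeq promoter windows of the same length, searched on both strands, the TATA box letters were in 14.2%, the GATA-factor letters in 7.05% and the NF-Y motif in 37.5%. The window held each of these 1 time, the TATA box letters 153 bases, the GATA-factor letters 120 bases and the NF-Y motif 9 bases before the Abcg5 start. The forkhead core TGTTTA, found in 13.7% of windows, had 1 match on the minus strand that overlaps the TATA box letters. Neither the nuclear receptor letters AGGTCA, in 16.2% of windows, nor their direct repeat with 4 bases between, in 0.00598%, was in these letters. A match is a run of letters and was not tested as a site.

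In the DAM study both genes stood far higher in resin-fed than in basal-diet animals. Abcg5 signals were 100.2, 76.02 and 54.73 at 0 mg/kg, 2281, 1926 and 1108 at 800 mg/kg and 922.3, 1694 and 2906 at 2000 mg/kg. Abcg8 signals were 10.54, 36.65 and 21.98 at 0 mg/kg, 531.9, 480.7 and 318 at 800 mg/kg and 265.4, 399.8 and 744.4 at 2000 mg/kg. Every resin-fed animal lay above every basal-diet animal for both genes, and the resin groups overlapped each other.

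**Figure D1:**
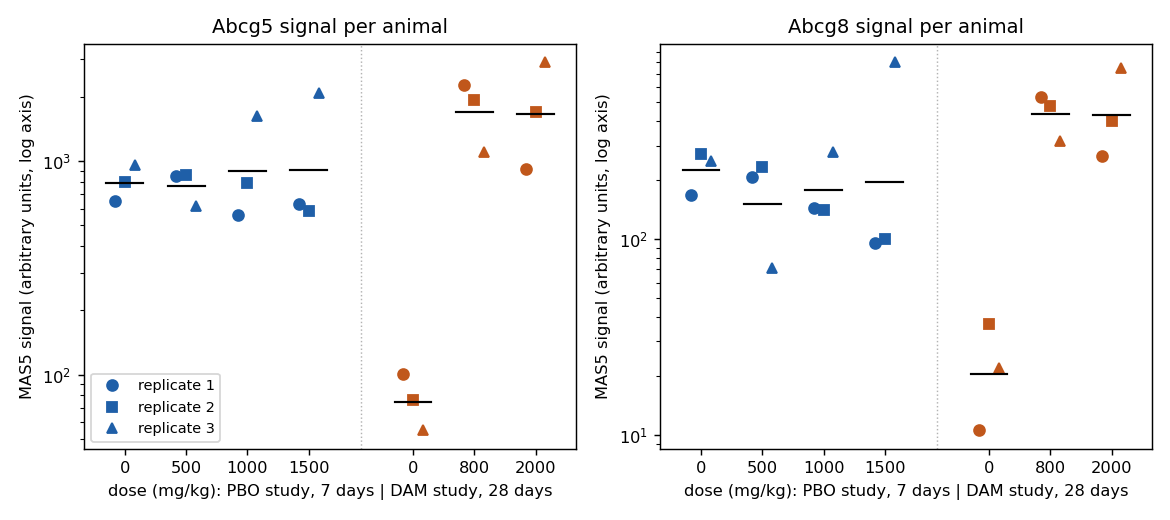
MAS5 signals of Abcg5 (left) and Abcg8 (right) on log axes, 1 point per animal with the replicate number as symbol, by dose in mg/kg, and bars at the geometric mean of each group. The 3 basal-diet animals of the DAM study sit lowest for both genes, at 54.73 to 100.2 for Abcg5, and replicate 3 of PBO 1500 stands above its group.

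On the log2(signal + 16) scale Abcg5 was higher by 4.23 ± 0.35 (SE of the fit, n = 3 per group) at 800 mg/kg and by 4.20 ± 0.35 at 2000 mg/kg. These are 18.8-fold and 18.4-fold, and the ratios of mean signals were 23 and 23.9. Abcg8 was higher by 3.58 ± 0.34 and 3.57 ± 0.34, that is 12-fold and 11.9-fold, with mean signal ratios of 19.2 and 20.4. The added 16 shrinks these changes most for Abcg8, whose basal-diet signals are close to it: the change of Abcg8 at 800 mg/kg was 4.33 with an added 1 and 2.53 with an added 64. Both dose comparisons use the same 3 basal-diet animals.

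Groups did not overlap, with the dosed animals higher, for 2 of 2 members at 800 mg/kg, where 9.95% of all 18625 probe sets tested did the same, and for 2 of 2 at 2000 mg/kg, where 14.2% did. Nothing is read from these counts, since the rule used both comparisons. Both members passed the filter on mean signal in the DAM study. Abcg8 on basal diet lay at percentiles 15.7 to 35.2 of its arrays, under the 40th percentile of that filter, so it passed through the resin-fed animals.

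Means of the pair were close at both resin doses. The mean at 2000 mg/kg minus that at 800 mg/kg was -0.03 for Abcg5 and -0.01 for Abcg8 on the log2(signal + 16) scale. Spread within a resin group was wide, since the highest animal exceeded the lowest by 2.06 times at 800 mg/kg and 3.15 times at 2000 mg/kg for Abcg5. For Abcg8 these ratios were 1.67 and 2.8.

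Hepatocyte markers gave high signals in every DAM group. Summed signals of 6 hepatocyte markers were 161900 to 200900 on basal diet, 190600 to 213400 at 800 mg/kg and 181400 to 213400 at 2000 mg/kg. The 6 markers of enterocytes, the other cell type that uses the pair, were mixed. Over the 21 arrays Si, Vil1 and Slc5a1 had median signals of 4.6, 13.01 and 18.17, and Fabp2, Cdh17 and Apoa4 had 331.5, 2342 and 3219. Their sum, led by Apoa4 and Cdh17, was 16870 to 18840 on basal diet, 5781 to 7623 at 800 mg/kg and 1303 to 2759 at 2000 mg/kg. Cholangiocyte markers, 5 of 6 with a probe set, summed to 707.7 to 949.7 on basal diet, 1175 to 1397 at 800 mg/kg and 1640 to 1795 at 2000 mg/kg. Epcam led this sum, with a median signal of 1256 over the 21 arrays, against 182.8 for the next marker, Krt19. Only 2 of these markers passed the filter in the DAM study, and 1 rose at each dose (2.16% and 6.22% of all probe sets). The part of cholangiocytes in the values of the pair was not tested. In such bulk tissue, more cells of a type and more RNA per cell cannot be told apart.

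In the PBO study the groups of both genes overlapped at every dose. Abcg5 signals were 650.4, 798.1 and 958.1 at 0 mg/kg, 853.3, 862.5 and 614.4 at 500 mg/kg, 558.9, 793.3 and 1622 at 1000 mg/kg and 628.8, 582.9 and 2084 at 1500 mg/kg. Abcg8 signals were 167.8, 272.4 and 249.8 at 0 mg/kg, 208.1, 232.4 and 71.23 at 500 mg/kg, 143.7, 140.9 and 278 at 1000 mg/kg and 95.25, 100 and 799.6 at 1500 mg/kg. At 1500 mg/kg, 2 animals lay below every vehicle animal for both genes and replicate 3 lay above every one.

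Abcg5 at 500, 1000 and 1500 mg/kg differed from vehicle by -0.05, 0.18 and 0.21, each ± 0.44 (SE, n = 3 per group), on the log2(signal + 16) scale. Abcg8 differed by -0.51, -0.31 and -0.14, each ± 0.65. The slopes over the 4 doses were 0.08 ± 0.13 for Abcg5 and -0.02 ± 0.20 for Abcg8 per 500 mg/kg. All of these lie within 1 standard error of 0. Without replicate 3 of 1500 mg/kg the differences at that dose were -0.38 for Abcg5 and -1.09 for Abcg8 and the slopes -0.07 and -0.29, and without replicate 3 of 1000 mg/kg Abcg5 at that dose was -0.25. Replicate 3 of 1500 mg/kg also had the largest root mean square deviation from its group mean over all probe sets, 0.515, against 0.386 to 0.439 for the other 11 PBO arrays. Not overlapping with higher dosed animals held for 0 of 2 members at each dose, against 8.57%, 12% and 14.4% of all probe sets at 500, 1000 and 1500 mg/kg.

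Both genes followed each other from animal to animal in the PBO study and among the resin-fed DAM animals. The 3 basal-diet DAM animals did not show this: the one highest in Abcg5, at 100.2, was lowest in Abcg8, at 10.54. Over the 12 PBO animals Pearson's r of the log2 values of Abcg5 and Abcg8 was 0.872 and Spearman's rho 0.853, and without replicate 3 of 1500 mg/kg they were 0.737 and 0.809 (n = 11). Over the 6 resin-fed animals r was 0.986 and rho 1. After subtracting group means, r was 0.903 in the PBO study and 0.705 in the DAM study, where it was 0.284 without the 2 animals farthest from the median of Abcg5. The genes of an animal share its array and its scaling, and these correlations are given as a description.

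**Figure D2:**
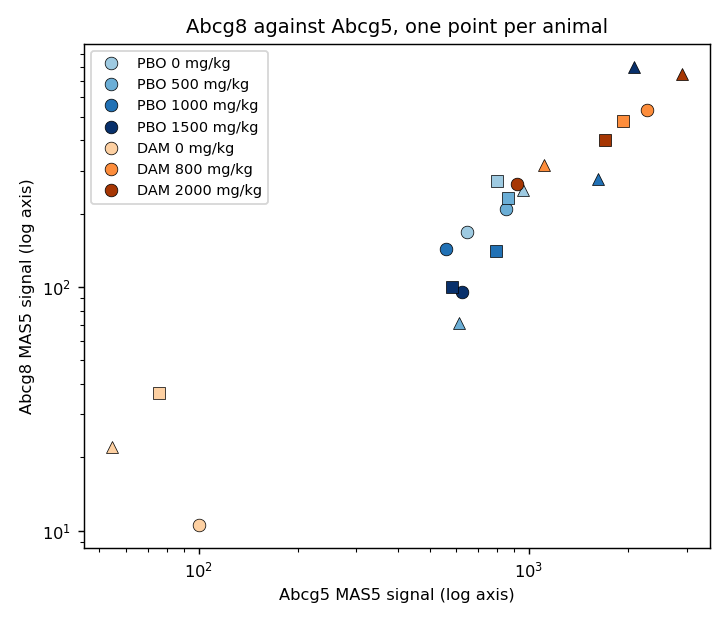
Abcg8 against Abcg5 MAS5 signals on log axes, 1 point per animal, coloured by dose group, with circles, squares and triangles for replicates 1, 2 and 3. The 3 basal-diet DAM animals lie apart at the lower left, the 6 resin-fed animals follow a line (r = 0.986), and replicate 3 of PBO 1500 lies above them in Abcg8, at 799.6.

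Among all 7 groups, the basal-diet DAM animals were lowest for both genes and separate from the next group, the PBO 500 mg/kg animals, by 3.11 for Abcg5 and 2.17 for Abcg8 on the log2(signal + 16) scale. Above them every group overlapped its neighbour in the order of means, up to the DAM 2000 and 800 mg/kg groups. The order of the PBO groups was 500, 0, 1000 and 1500 mg/kg for Abcg5 and 500, 1000, 1500 and 0 mg/kg for Abcg8, and these neighbours did not differ beyond their spread.

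Vehicle animals of the PBO study were set against basal-diet animals of the DAM study to describe the level of the pair without compound. Abcg5 signals were 650.4, 798.1 and 958.1 in the PBO vehicle animals, against 100.2, 76.02 and 54.73 in the DAM basal-diet animals, a difference of 3.15 ± 0.22 (SE, n = 3 per group), or 8.87-fold, with a mean signal ratio of 10.4. Abcg8 signals were 167.8, 272.4 and 249.8 in the PBO vehicle animals, against 10.54, 36.65 and 21.98 in the DAM basal-diet animals, a difference of 2.68 ± 0.33, or 6.43-fold, with a mean signal ratio of 9.98. The size for Abcg8 depends on the added 16, to which its basal-diet signals are close: it was 3.39 with an added 1 and 1.75 with an added 64. The groups did not overlap for 2 of 2 members, as for 27.2% of all probe sets in that direction. Nothing is read from this count, since the rule used this difference. Abcg8 on basal diet lay at percentiles 15.7 to 35.2, so it passed the filter through the PBO vehicle animals. Scaling each array to a common median moved the median of all probe sets by -0.37 and left 2.79 for Abcg5.

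Levels between the studies rest on the probe set used. Of 723 genes with at least 2 probe sets called between the undosed groups (adjusted p under 0.05 in limma), 331, or 45.8%, had probe sets called in opposite directions. Between DAM 2000 and 0 mg/kg this held for 0 of 157 such genes, and between PBO 1500 and 0 mg/kg for 1 of 275. Abca1, a cholesterol exporter and LXR target, had probe sets at 1.05, -0.91, 0.06 and 2.29 (PBO vehicle minus DAM basal diet), and the main probe set of Srebf1 was at -0.40 and its other one at 0.96. Abcg5 and Abcg8 have 1 probe set each, so no second one was there to compare.

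The other LXR targets were mixed under dammar resin, with more falls than rises. Of 14 measured in a list of 16, 2 rose and 5 fell at 2000 mg/kg, where 6.22% of all probe sets rose and 6.11% fell (adjusted p under 0.05 in limma, over 18625 probe sets), and the list's median change was -0.34, against -0.04 over all probe sets. At 800 mg/kg, 0 rose (1 at an unadjusted p under 0.05) and 4 fell, with a median of -0.25 against -0.02, where 2.16% of all probe sets rose and 1.62% fell. With arrays scaled to a common median, 73.9% of all calls at 2000 mg/kg were higher in place of 50.4%, and 73.3% at 800 mg/kg in place of 57.2%, and the median of all probe sets at 2000 mg/kg shifted by 0.10.

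**Figure D3:**
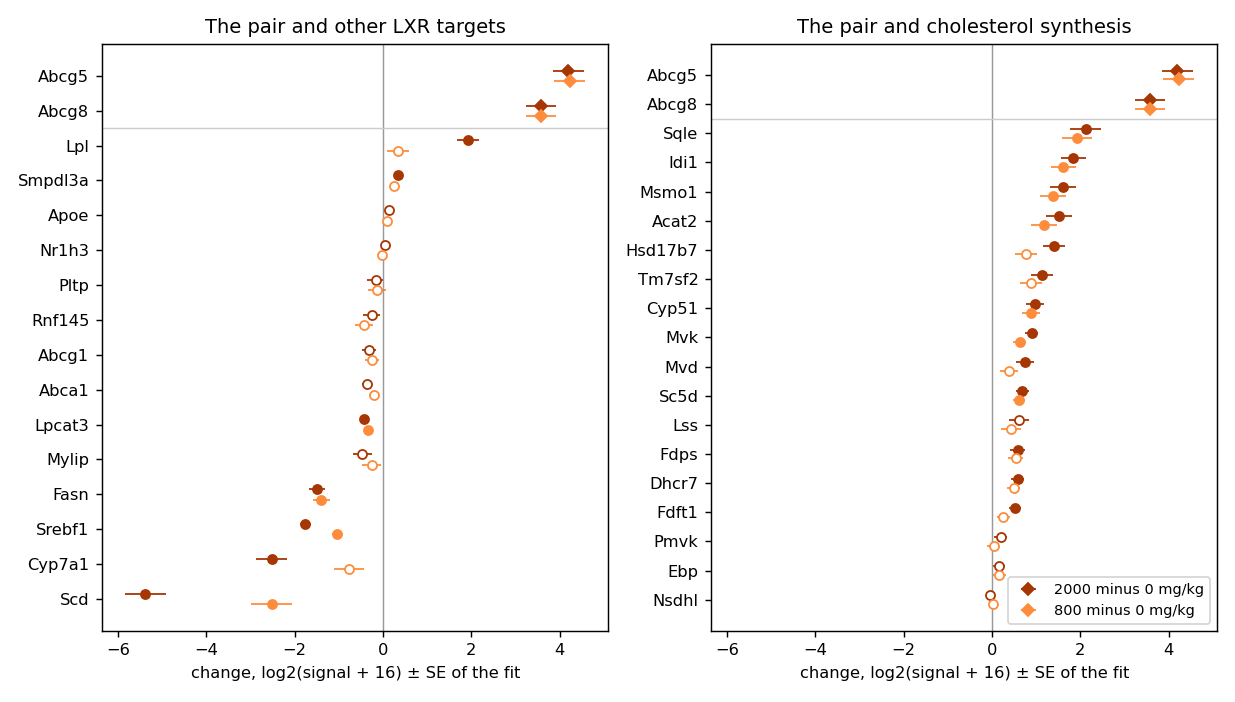
Change on the log2(signal + 16) scale ± SE of the fit in the DAM study for the pair (diamonds) with the other LXR targets (left) and with cholesterol synthesis (right), dark for 2000 minus 0 mg/kg and light for 800 minus 0 mg/kg. Filled circles passed the test and open circles did not, and the pair, at 3.57 to 4.23, was not tested.

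Srebf1, the LXR-driven activator of fatty acid synthesis, fell at 2000 mg/kg, with signals of 2573, 1870 and 2193 there, against 6878, 7461 and 8053 on basal diet (-1.76 ± 0.12, adjusted p = 2.56e-06), and also at 800 mg/kg (-1.03 ± 0.12, adjusted p = 0.000481). Its targets Scd, the stearoyl-CoA desaturase, and Fasn, the fatty acid synthase, also fell at 2000 mg/kg, with changes of -5.38 ± 0.46 and -1.49 ± 0.19. Lpl, lipoprotein lipase, rose, with signals of 395.3, 611.7 and 987.3 at 2000 mg/kg, against 139, 151.4 and 166 on basal diet (1.93 ± 0.25, adjusted p = 0.00031).

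Abca1 and Abcg1, other sterol exporters, did not pass the test in the fit reported here. Abca1 had signals of 2010, 2060 and 1718 at 2000 mg/kg, against 2542, 2636 and 2250 on basal diet (-0.36 ± 0.11, adjusted p = 0.0584), and 1 of its other probe sets passed at -0.45 (adjusted p = 0.0308). The first probe set passed as lower with the filter at the 60th percentile (adjusted p = 0.0444), with the replicate block (adjusted p = 0.0297) and in a fit of these 6 arrays alone (adjusted p = 0.0432). Abcg1, which passes cholesterol to lipoproteins, had 361, 392.8 and 520.6 at 2000 mg/kg, against 545.7, 490.6 and 538.2 on basal diet (-0.31 ± 0.16, adjusted p = 0.231). Of the other ABCG transporters, 0 of 3 measured were called at either dose by limma, and at an unadjusted p under 0.05 the counts were 0 at 800 mg/kg and 1, which was lower, at 2000 mg/kg. Abcg2, an exporter of drugs and urate, differed by -0.38 ± 0.15 at 2000 mg/kg (adjusted p = 0.118).

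Among 11 transcription factors named as regulators of the pair, 0 rose and 3 fell at 2000 mg/kg (6.22% and 6.11% of all probe sets), with a median of -0.05, against -0.04 over all probe sets. At 800 mg/kg 0 were called (3.79% of all probe sets), where 3 were lower at an unadjusted p under 0.05. Messenger RNA of the LXRs themselves did not pass the test. Nr1h3 signals were 4014, 3949 and 3995 at 2000 mg/kg, against 3970, 4027 and 3624 on basal diet (0.04 ± 0.09, adjusted p = 0.803), and Nr1h2 differed by 0.02 ± 0.13 (adjusted p = 0.941). Nr5a2 differed by -0.05 ± 0.08 (adjusted p = 0.763). Nr0b2, the small heterodimer partner SHP induced by bile acids through FXR, fell at 2000 mg/kg only. Its signals were 736.7, 700.5 and 476.2 there, against 3368, 4649 and 3569 on basal diet (-2.58 ± 0.19, adjusted p = 3.59e-06), and 3053, 4709 and 3296 at 800 mg/kg. Hnf4a, a hepatocyte master regulator, was at -0.35 ± 0.07 (adjusted p = 0.00898), a call lost with median scaling (adjusted p = 0.185) or without the intensity trend, and its other probe sets were at 0.12 and 0.42 and did not pass. Of 4 endoplasmic reticulum chaperones (Canx, Calr, Hspa5 and Pdia3), 0 were called at either dose, and 0 had an unadjusted p under 0.05.

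Cholesterol synthesis rose beside the pair. Of 17 measured enzymes in a list of 20, 13 rose and 0 fell at 2000 mg/kg, where 6.22% of all probe sets rose and 6.11% fell, with a median change of 0.74, against -0.04 over all probe sets. At 800 mg/kg 7 rose and 0 fell, where 2.16% of all probe sets rose and 1.62% fell, with a median of 0.61, against -0.02. Sqle, the squalene epoxidase, had signals of 983.7, 1712 and 2940 at 2000 mg/kg, against 488.2, 302 and 370.5 on basal diet (2.12 ± 0.35, adjusted p = 0.00161). Idi1, an isomerase of the mevalonate pathway, had 6611, 9497 and 16420 at 2000 mg/kg, against 3487, 2275 and 2812 on basal diet (1.84 ± 0.28, adjusted p = 0.00104). The mevalonate kinase Mvk and the sterol oxidase Msmo1 rose by 0.90 ± 0.14 and 1.61 ± 0.29.

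Some of these enzymes varied with the pair among the resin-fed animals. Replicate 3 at 2000 mg/kg was highest in Abcg5, Abcg8, Sqle and Idi1, and replicate 1 at 2000 mg/kg and replicate 3 at 800 mg/kg were the lowest resin-fed animals in all of them. Over the 6 resin-fed animals, r with Abcg5 was 0.971 for Sqle (rho 0.943), 0.955 for Idi1 (rho 0.943) and 0.969 for Cyp51, the lanosterol demethylase (rho 1), and without the 2 animals farthest from the median of Abcg5 it was 0.926, 0.939 and 0.97. The median r over the 17 enzymes was 0.898, with a range of 0.482 (Mvk) to 0.971, against -0.009 over all probe sets tested, and 8 of 17, or 47.1%, reached 0.9, against 0.881% of all probe sets. After subtracting group means the median of the 17 was 0.963. In the PBO study it was -0.392 over 12 animals, and 0 without replicate 3 of 1500 mg/kg. These comparisons were chosen after the values had been seen, and the 17 enzymes of an animal are not independent of each other.

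**Figure D4:**
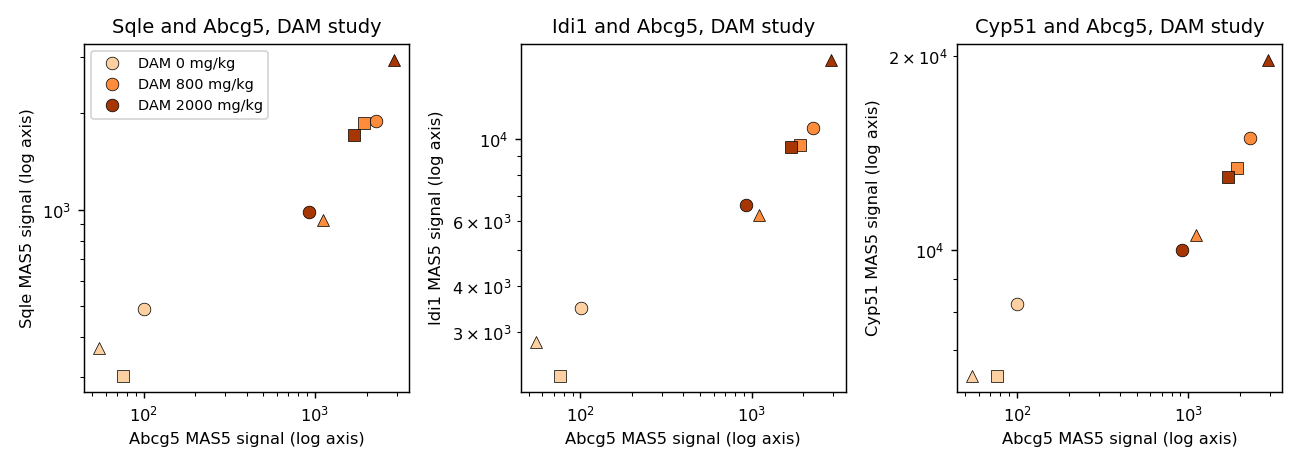
Signals of the cholesterol synthesis enzymes Sqle, Idi1 and Cyp51 against Abcg5 in the 9 DAM animals, all axes log, coloured by dose with circles, squares and triangles for replicates 1, 2 and 3. The resin-fed animal highest in Abcg5 was highest in each enzyme, and the resin-fed animals had Sqle at 929.2 to 2940.

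Sterol sensing and uptake were mixed at 2000 mg/kg, where 2 of 8 measured genes rose and 2 fell (6.22% and 6.11% of all probe sets), with 1 and 0 at 800 mg/kg (2.16% and 1.62%). Insig1, a sterol sensor that holds SREBP in the endoplasmic reticulum and is itself induced by SREBP, fell by 1.07 ± 0.17 at 2000 mg/kg, with signals of 6133, 5644 and 7219, against 11480, 15150 and 13430 on basal diet (adjusted p = 0.0011). Srebf2, the activator of cholesterol synthesis, was at 0.29 ± 0.12 (adjusted p = 0.136) and passed with median scaling (adjusted p = 0.0411). Of 12 genes of intracellular sterol transport and esterification, 2 rose and 1 fell at 2000 mg/kg and 0 and 1 at 800 mg/kg, against the same shares of all probe sets. The one that fell at both doses was Stard5, a lipid transfer protein, by 0.57 ± 0.09 and 0.39 ± 0.09.

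Bile acid synthesis, the other route by which liver disposes of cholesterol, had 2 rises and 4 falls among 9 measured genes at 2000 mg/kg, against 6.22% and 6.11% of all probe sets, and 1 rise and 0 falls at 800 mg/kg, against 2.16% and 1.62%. Cyp7a1, the rate-limiting enzyme and in rodents an LXR target, had signals of 1009, 498 and 1073 at 2000 mg/kg, against 3868, 3475 and 7911 on basal diet (-2.52 ± 0.35, adjusted p = 0.000527), and was at -0.77 ± 0.35 at 800 mg/kg (adjusted p = 0.303). Akr1d1, the bile acid 5β-reductase, rose by 0.80 ± 0.12 (adjusted p = 0.000663), while its other probe set, at 0.21, did not pass.

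Among the other exporters and pumps of the canalicular membrane, 4 of 8 rose and 0 fell at each resin dose, where 6.22% of all probe sets rose and 6.11% fell at 2000 mg/kg, and 2.16% and 1.62% at 800 mg/kg. Abcb1a, a P-glycoprotein that exports drugs, had signals of 2005, 2042 and 2099 at 2000 mg/kg, against 226.5, 288.3 and 191.2 on basal diet (3.06 ± 0.14, adjusted p = 7.29e-08), and was at 2.68 ± 0.14 at 800 mg/kg. It is one of a pair of near-identical rat paralogs, so its probe sets may read both. The bile salt pump Abcb11, which supplies the bile salts that accept sterols in bile, was at 0.19 ± 0.08 at 2000 mg/kg (adjusted p = 0.121). Abcb4, the phospholipid exporter of bile, was at 0.55 ± 0.13 at both doses. That call (adjusted p = 0.014 at 2000 mg/kg) was lost without the intensity trend or without basal-diet replicate 3 (highest adjusted p = 0.0596), and at 800 mg/kg (adjusted p = 0.0328) it was lost without any 1 of the 6 animals (adjusted p = 0.0635 to 0.116), without the intensity trend (adjusted p = 0.134) and with no filter on low signal (adjusted p = 0.0567).

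Over all 9 lists, 25 of 81 measured genes rose and 14 fell at 2000 mg/kg, where 12.3% of all probe sets were called. At 800 mg/kg, 13 rose and 5 fell, where 3.79% were called. That count of 18 was 7 to 10 without any 1 of basal-diet replicates 1 and 3 and the 800 mg/kg animals, 12 without basal-diet replicate 2, and 3 without the intensity trend.

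Under PBO, list genes passed the test at every dose. At 500 mg/kg, 0 of 81 measured genes rose and 1, Scd, fell (-6.48 ± 0.62), where 0.478% of all probe sets were called, 0.349% higher and 0.129% lower. At 1000 mg/kg, 9 rose and 1, again Scd, fell (-5.76 ± 0.62), where 3.12% were called, 1.88% higher and 1.23% lower. At 1500 mg/kg, 11 rose and 14 fell, where 17.3% were called, 8.08% higher and 9.26% lower. Over the trend, 11 rose and 11 fell, where 7.92% of all probe sets rose and 8.84% fell. Of 17 cholesterol synthesis enzymes, 0 were called at 500 mg/kg, with a median of 0.56, against -0.04 over all probe sets. At an unadjusted p under 0.05 in limma, 9 of them were higher and 0 lower at that dose. At 1000 mg/kg 5 rose and 0 fell, with a median of 0.87, against -0.05. Cholesterol synthesis had 6 rises and 1 fall among 17 at 1500 mg/kg with a median of 0.56, against -0.08 over all probe sets. Among the LXR targets 2 of 14 rose and 3 fell at 1500 mg/kg. Of the 2 that rose, Lpl was at 2.235 ± 0.371 (adjusted p = 0.00138). Those that fell were Scd at -4.96 ± 0.62 (adjusted p = 0.000204), Srebf1 at -2.28 ± 0.32 (adjusted p = 0.000493) and Pltp, the phospholipid transfer protein, at -1.65 ± 0.27 (adjusted p = 0.00124). Lcat, which esterifies cholesterol in plasma, fell by 0.81 ± 0.12 (adjusted p = 0.000512), and the canalicular exporter Abcc2 rose by 1.02 ± 0.18 (adjusted p = 0.00246). Abcb1a, which rose under dammar resin, also rose here, by 2.36 ± 0.35 (adjusted p = 0.000611), and its other probe set by 2.05 (adjusted p = 0.00108). The count at 1000 mg/kg was 2 to 4 without any 1 animal of the compared groups and 19 without replicate 3 of 1500 mg/kg, and the count at 1500 mg/kg was 16 without any 1 vehicle animal. With median scaling, 80.5% of calls at 1000 mg/kg were higher in place of 60.4%, and 63% at 1500 mg/kg in place of 46.6%.

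Between the undosed groups, 28 of 82 measured list genes were higher and 22 lower in the PBO vehicle animals than in the DAM basal-diet animals, where 36.9% of all probe sets were called, 19.7% higher and 17.2% lower. Of these calls 53.3% were higher, or 18.6% with median scaling. Nr1h2, the LXRβ gene, with 1 probe set tested, had signals of 960.3, 788.8 and 877.5 in the PBO vehicle animals, against 314.9, 266.8 and 269.6 in the DAM basal-diet animals (1.57 ± 0.13, adjusted p = 1.55e-05). Nr1h3 differed by -0.03 ± 0.09 (adjusted p = 0.814), though with median scaling it passed as lower (adjusted p = 0.0103). Nr0b2 differed by -2.53 ± 0.45, with 474.2, 1684 and 340 in the PBO vehicle animals, against 3368, 4649 and 3569 in the DAM basal-diet animals (adjusted p = 0.00177). Calr, a chaperone of the endoplasmic reticulum, was higher by 1.66 ± 0.08 (adjusted p = 3.02e-07).

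The genes flanking the pair on chromosome 6 were tested in the same comparisons. Lrpprc, a mitochondrial RNA-binding protein gene beyond Abcg8, had signals of 3817, 3997 and 3574 at DAM 2000 mg/kg, against 3172, 3173 and 3034 on basal diet (0.28 ± 0.07, adjusted p = 0.0189). In the PBO study it rose by 0.94 ± 0.15 at 1500 mg/kg (adjusted p = 0.00087), with 5393, 4466 and 3594, against 2358, 2489 and 2058 on vehicle. Dync2li1, a cilium motor subunit gene beyond Abcg5, was called in none of the comparisons (adjusted p = 0.608 at DAM 2000 mg/kg).

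Genes whose pattern was most like the pair were named by the Pearson correlation of log2 values over the 21 arrays after each study's undosed mean was subtracted. Abcg8 was closest to Abcg5 at 0.973. For Abcg5 the 5 next genes were Fndc5, a membrane protein gene (0.941), Ablim3, of an actin-binding protein (0.893), Cldn7, of a tight junction claudin (0.869), Slc6a13, of a transporter of GABA and taurine (0.862), and Fgfrl1, of a fibroblast growth factor receptor-like protein (0.859). For Abcg8 they were Fndc5 (0.895), Cldn7 (0.89), Ablim3 (0.864), Slc6a13 (0.848) and Snx8, of a sorting nexin (0.847). The subtraction takes out the difference between the undosed groups. In it Cldn7, at -3.56 (PBO vehicle minus DAM basal diet), and Snx8, at -0.75, went opposite to the pair. Fndc5, Ablim3, Slc6a13 and Fgfrl1 went the same way as the pair, at 0.66 to 1.29.

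Fndc5 signals were 100.1, 105.4 and 97.07 on the basal diet of the DAM study, 333.6, 262.8 and 336.7 at 800 mg/kg and 247, 291.3 and 337.6 at 2000 mg/kg, so the resin groups overlapped each other and lay above basal diet, as for the pair. Fndc5 was chosen for its likeness to the pair on these same arrays, so this match follows from the choice. Mean changes of Fndc5 were 1.48 at 800 mg/kg and 1.39 at 2000 mg/kg, smaller than those of either member. Within the PBO study its correlation with Abcg5 was 0.274 (n = 12) and with Abcg8 0.06, while Cldn7 had 0.732 and 0.788. Ablim3 had 0.613 and 0.488 there, and Slc6a13 had 0.121 and 0.203. Fgfrl1 had 0.294 with Abcg5, and Snx8 had 0.326 with Abcg8. Within the DAM study r of Fndc5 with Abcg5 was 0.974 (n = 9).

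**Figure D5:**
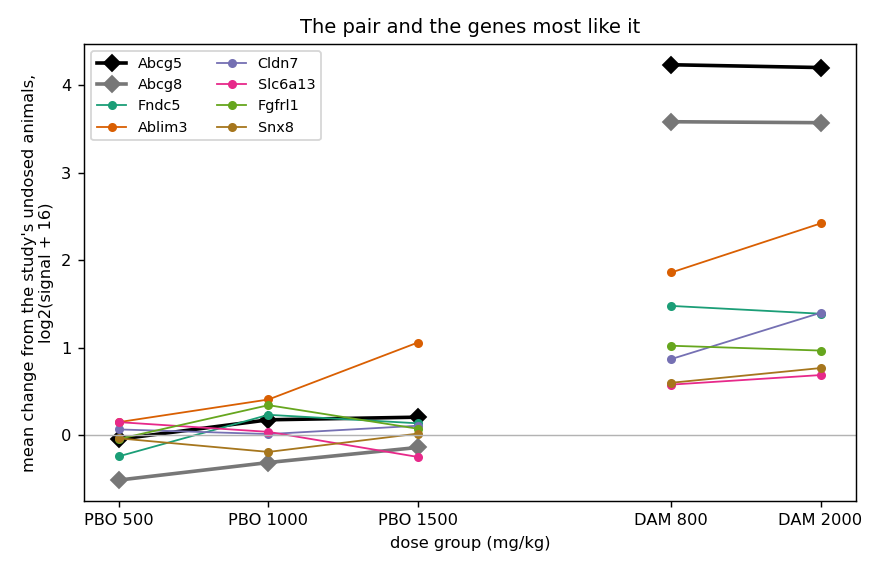
Mean change from the undosed animals of the same study on the log2(signal + 16) scale in the 5 dosed groups for Abcg5 and Abcg8 (diamonds) and the 6 genes most like them (circles). All 8 genes stand above 0 in both DAM groups, the pair highest at 3.57 to 4.23, and the 6 were chosen for likeness on these same arrays.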

How the data were processed

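RNA from the livers of 21 rats was hybridised to 1 array per animal. The authors deposited linear intensity values per probe set, and the submitters' processing notes name MAS5 with a version not given in the sources used here. Trimmed means (2% at each end) were 500.25 to 500.29 on every array, and array medians were 94.25 to 114.1 in the PBO study and 76.02 to 86.15 in the DAM study. Groups and replicate numbers came from the labels, which call the replicates biological. Symbols came from the platform annotation and were brought up to date by Entrez identifier for 20758 probe sets; 20826 had 1 symbol, 436 several and 9780 none. A gene was represented by the tested probe set whose mean log2 value was highest. Of 97 listed genes, 84 had a probe set, and 3 of 16 fixed genes were not analysed here.

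Signals were transformed as log2(signal + 16), and probe sets with a mean above the 40th percentile of a fit (18625) were tested with limma (lmFit, eBayes with intensity trend) per study and over the 6 undosed arrays, with Benjamini-Hochberg adjustment at 0.05. Comparisons were each dose with its own control, the trend over PBO doses in steps of 500 mg/kg, and PBO vehicle with DAM basal diet. The members, the gene lists and the tests were chosen with earlier results of these data known. Named were the pair, its flanking genes, the 5 genes most like each member, 16 fixed genes, and from each list up to 4 called genes with the smallest adjusted p at the highest doses and 3 elsewhere; of these the text gives a selection that leans to calls kept under the alternatives. Cyp51 lies outside that rule and was chosen after its values were seen. Replicate numbers did not pair the animals: deviations of same-numbered animals correlated at -0.065 to 0.107 over 18 pairs, with 1 over 0.1. In simulated data for DAM 2000 mg/kg, 28%, 74%, 96% and 96% of 50 changes each of 0.5, 1, 2 and 3 were recovered with 4 false calls. For PBO 1500 mg/kg the shares were 8%, 56%, 84% and 94% with 7. Simulated probe sets were drawn from normal distributions independently of each other, and changes were placed only in those above the median of mean log2 values. Real data lack both features, so recovery and false calls there may be less favourable. Alternatives were pseudocounts of 1 and 64, other filters, quantile normalization, median scaling, no intensity trend, the replicate number as a block, other arrays in the fit, and each array left out in turn. Arrays give no count-based depth, and 3 animals per group limit the precision. The fits ran in limma 3.58.1 under R 4.3.3, and figures were drawn with matplotlib 3.10.9 in Python 3.11.15.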

Additional observations from a re-analysis of the deposited data

How the results depend on the processing

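Signs of the pair held in both DAM comparisons and between the undosed groups under every alternative run. The rule used these differences and the groups did not overlap, so the held signs are a description and no support. At DAM 800 mg/kg, 4.23 for Abcg5 became 3.66 with a pseudocount of 64, and 3.58 for Abcg8 became 4.33 and 2.53 with pseudocounts of 1 and 64; at 2000 mg/kg, 3.57 for Abcg8 became 4.32 and 2.53. Between undosed groups, 3.15 for Abcg5 became 2.62 with a pseudocount of 64 and 2.79 with median scaling, and 2.68 for Abcg8 became 3.39 and 1.75 with pseudocounts of 1 and 64 and 2.39 with median scaling. Leaving out 1 animal gave, for Abcg5 and Abcg8, 4.02 to 4.54 and 3.33 to 3.82 (DAM 800), 3.80 to 4.62 and 3.19 to 3.90 (DAM 2000), 2.97 to 3.33 and 2.43 to 2.93 (undosed), -0.18 to 0.11 and -0.79 to -0.03 (PBO 500), -0.25 to 0.51 and -0.61 to -0.16 (PBO 1000), -0.38 to 0.53 and -1.09 to 0.35 (PBO 1500) and -0.07 to 0.17 and -0.29 to 0.09 (trend).

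Calls among list genes depended more on the setting, and the causes were not tested. At PBO 500, 1 call became 2 with quantile normalization, 3 with median scaling, 5 with only the arrays of both groups and 1 to 7 without 1 animal. At PBO 1000, 10 became 2 without the intensity trend, 23 with only both groups and 2 to 19 without 1 animal. At PBO 1500, 25 became 15, 14 and 16 to 32, and the 22 of the trend became 15 to 32 without 1 animal. At DAM 800, 18 became 10 with no filter, 3 without the intensity trend and 7 to 12 without 1 animal. At DAM 2000, 39 became 22 without the intensity trend and 29 to 36 without 1 animal, and between undosed groups 50 became 30 with all 21 arrays in the fit and 39 to 45 without 1 animal. Of named calls, 14 of 26 were kept under every alternative at DAM 2000, 3 of 12 at DAM 800, 11 of 21 at PBO 1500 and 12 of 26 between undosed groups. Abcb4 between undosed groups turned to -0.01 with median scaling.

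With the replicate number as a block, the values of the pair were the same (Abcg5 4.23 at DAM 800 mg/kg) and list calls were 1, 7 and 22 for the PBO doses, 20 for the trend, 12 and 34 for the DAM doses and 54 between undosed groups.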
